A study of Mus musculus with 41 samples.

Results

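The 6 genes described here encode proteins that neutrophils make in large amounts: S100a8, S100a9, Camp, Ngp, Mpo and Retnlg. They were taken from the spots of the mRNA arrays that carry 1 of these names, which gave 1 probe for each gene, 6 of the 41174 probes and 6 of the 27962 gene names on the array. Expression was measured in the lung and liver of female C57BL/6 mice (C57BL/6BomTac in the study's methods) that had inhaled 40 mg nanoTiO2 per m3 of air, 1 hour a day on 11 days in a row, and in mice kept in filtered air on the same schedule. All mice, controls included, had been time-mated without conceiving, and all were killed 5 days after the last exposure. The mRNA labels give no age in weeks. The mRNA arrays came from the lungs of 7 exposed and 6 control mice and the livers of 7 exposed and 8 control mice, each array holding the RNA of 1 mouse, and 12 mice have both a lung and a liver array. Each sample carried Cy5 and was hybridized against a purchased reference RNA from mouse cell lines in Cy3, with no dye swap, and a value is the log2 ratio of Cy5 over Cy3 unless stated otherwise. Such a value tells how a gene compares between arrays, not how abundant 1 gene is beside another.

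Neutrophils are short-lived white blood cells that leave the bone marrow with their granules already filled. S100a8 and S100a9 are small calcium-binding proteins of the cytosol that pair with each other, bind zinc and manganese, and act as alarm signals at Toll-like receptor 4 when released. Mpo, the peroxidase of the primary granules, is transcribed in early precursors in the marrow, and Camp, the cathelicidin precursor, and Ngp, a cystatin-like granule protein, are transcribed in later precursors. The mRNA of S100a8, S100a9 and Retnlg, a resistin-like secreted protein, is still abundant in circulating neutrophils. In whole-tissue RNA, fewer cells of a type and less RNA in each cell cannot be told apart.

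The probes are shown because every value below rests on 1 oligonucleotide of 60 bases for each gene. The first 30 bases of each are given 5′ to 3′ in lower case, with no part set apart by capitals.
S100a8: cttgttcagagaattggacatcaatagtga
S100a9: ctgcccaaccaagtctaaagggaatggctt
Camp: tggacttctccgcaaaggtggggagaagat
Ngp: gacagggattgcagtcgagaggatacccaa
Mpo: tagaggttgggagtctgccgggagaaggac
Retnlg: gctgagaacctagctttgaaatgaagacta
On the mm7 build named in the scanner files, the S100a8 probe lies at chr3:90800058-90800117 and the S100a9 probe at chr3:90822865-90822924. The Camp probe lies at chr9:109544107-109544166 and the Retnlg probe at chr16:48635078-48635137. The Ngp probe, at chr9:110119702-110120250, and the Mpo probe, at chr11:87873508-87874283, cover 549 and 776 genomic bases, so that both are interrupted by an intron. In the RefSeq gene table of GRCm38.p6, S100a8 is followed directly by S100a9, Retnlg follows Retnlb and Retnla, and Mpo stands next to Lpo.

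In exposed lungs S100a8 and S100a9 were correlated by r between mice, with the limits given below. The 250 bases before the transcription starts of both genes are therefore shown. They come from RefSeq on GRCm38.p6, with matches to 3 short motifs in capitals: TATAAA, the TATA box; GAGGAA, the core of PU.1 sites; and TTGCNNAA, a form of the C/EBP site. PU.1 and C/EBP proteins are transcription factors of the granulocyte lineage. Both strands were searched.
S100a8, chr3:90668821-90669070, plus strand: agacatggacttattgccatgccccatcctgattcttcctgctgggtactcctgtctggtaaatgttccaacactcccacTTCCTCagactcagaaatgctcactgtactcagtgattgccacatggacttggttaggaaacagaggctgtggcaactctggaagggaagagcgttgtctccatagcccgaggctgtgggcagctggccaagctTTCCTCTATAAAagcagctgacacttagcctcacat
S100a9, chr3:90695722-90695971, minus strand: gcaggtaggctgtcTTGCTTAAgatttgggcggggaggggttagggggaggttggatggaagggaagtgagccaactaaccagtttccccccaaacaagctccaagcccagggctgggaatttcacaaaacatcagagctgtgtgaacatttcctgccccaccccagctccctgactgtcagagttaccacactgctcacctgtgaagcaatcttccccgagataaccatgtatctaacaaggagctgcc
The S100a8 window held 1 TATAAA that ended 24 bases before the start, a GAGGAA on the other strand directly before it, and a second GAGGAA that ended 164 bases before the start. The S100a9 window held 1 TTGCNNAA, ending 228 bases before the start, and neither of the other motifs. Over the 6 genes, TATAAA was found in 1 window, GAGGAA in 2 (S100a8 and Mpo) and TTGCNNAA in 3 (S100a9, Ngp and Retnlg). Among all 32851 RefSeq promoters cut to the same 250 bases, TATAAA was present in 12.4%, GAGGAA in 23.3% and TTGCNNAA in 9.56%. These matches describe the letters only.

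The labelled tissues were checked on marker genes. In control mice all 5 measured lung epithelium markers were higher in lung and all 4 measured hepatocyte markers were higher in liver. Both groups of lung pieces also carried heart muscle transcripts, with a mean over 4 markers between 1.76 and 3.75 in control and between 2.47 and 3.94 in exposed lungs. Hepatocyte transcripts were measured in the lung arrays as well, with a mean over 4 markers between 0.44 and 1.33 in control and between 0.72 and 2.23 in exposed lungs. All 4 had a difference above 0, with a median of 0.69, and none was called, Alb having an unadjusted p of 0.0361 by limma. Their part in the lung results was not tested. In Cy5, 61.3% to 67.5% of spots on the lung arrays and 55.1% to 70.5% on the liver arrays were well above background, and no spot of the 6 genes was saturated or marked as an outlier. In Cy3, the reference channel, Camp, Ngp and Retnlg were well above background on 0 arrays of each group. Their ratios, in lung as in liver, thus set Cy5 against a reference signal near background. Below, well above background refers to Cy5 unless Cy3 is named. The liver of control mouse 32 stood apart from the other livers in all 6 genes. The liver exposure difference of each gene is therefore given with and without it, and gene list results include it unless stated otherwise.

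S100a8 had a lower mean in exposed than in control lungs, but the groups overlapped. In exposed lungs the 7 values ran from 0.50 in mouse 20 through a median of 1.74 to 2.60 in mouse 12. In control lungs the 6 values ran from 1.16 in mouse 24 through a median of 2.43 to 3.77 in mouse 29. Exposed mice 19 and 20 lay below every control, the other exposed mice lay among the controls, and no exposed mouse lay above the highest control, as the plot of values by array shows. The group means were 1.61 ± 0.88 (SD, n = 7) and 2.49 ± 0.85 (SD, n = 6). The difference was -0.88 ± 0.42 (SE) on the log2 scale, with a 95% confidence interval from -1.77 to 0.0089, and limma gave an adjusted p of 0.705. An exact two-sided permutation test over the arrays gave p = 0.0967.

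**Figure D1:**
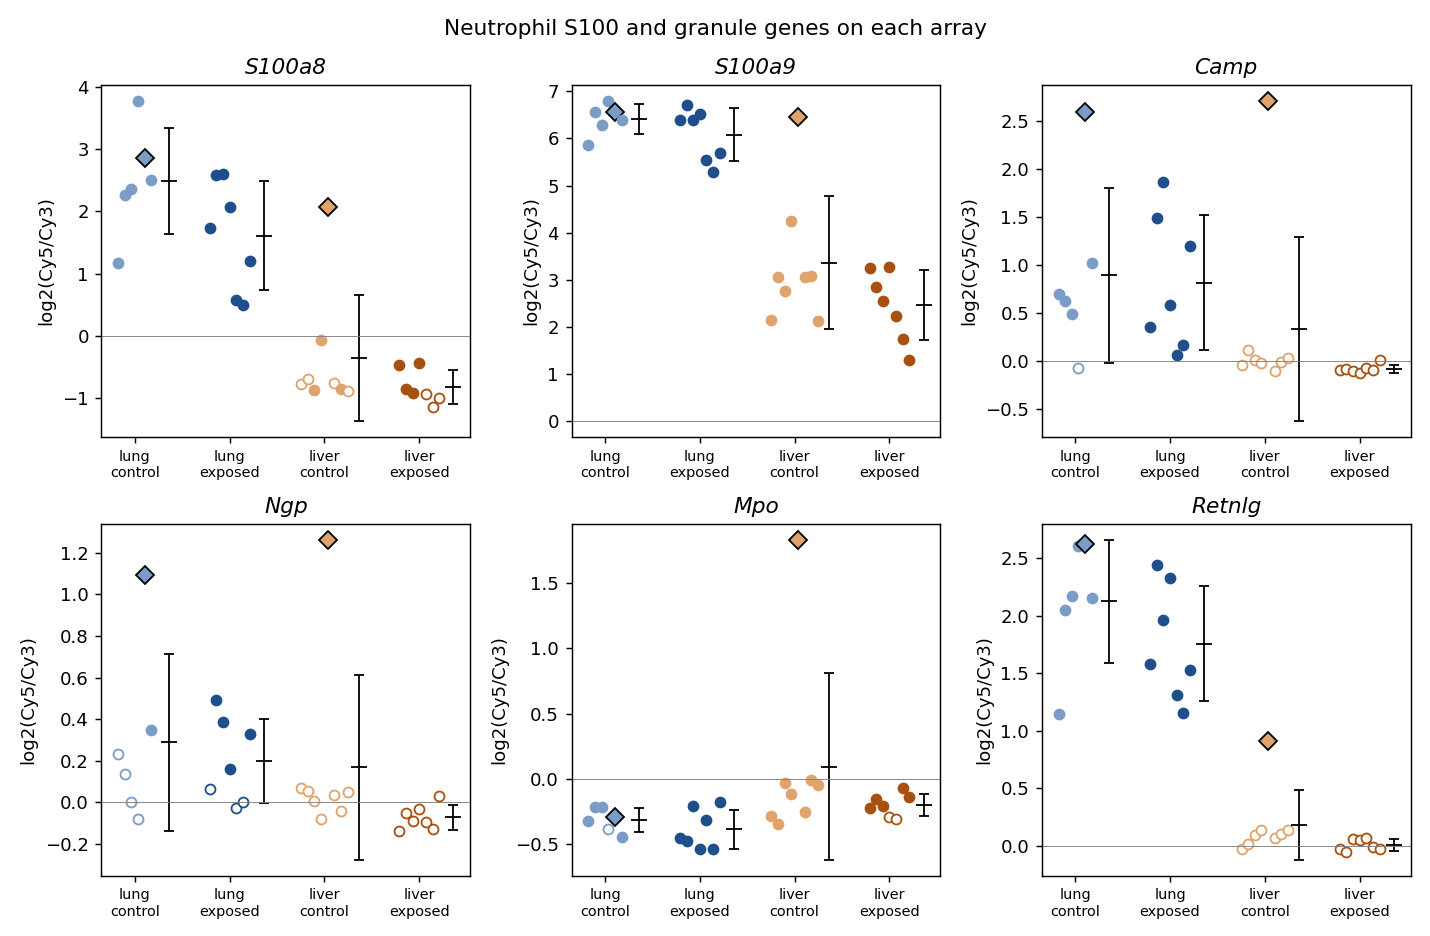
Log2(Cy5/Cy3) of each gene on each of the 28 arrays by group, with the group mean and SD as black bars. Filled symbols are arrays on which the probe was well above background in Cy5, open symbols arrays on which it was not, and diamonds mark control mouse 32. Its liver values, from 0.91 for Retnlg to 6.46 for S100a9, are the highest of the liver arrays in each panel.

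By point estimate the S100a8 difference varied between parts of the hybridization, which was not tested. Slides 1 and 2 were scanned on 1 day and slides 3 and 4 on another. Exposed minus control was -0.086 within the first scan day (3 exposed and 4 control arrays) and -1.60 within the second (4 exposed and 2 control arrays). Within slides it was 0.44 on slide 1, -0.47 on slide 2 and -1.37 on slide 3, while slide 4 held exposed lungs alone. With slide as a block the fitted difference was -0.46, with an adjusted p of 0.790. Exposed samples always sat at the first positions of a slide and controls at the last, so position and exposure cannot be told apart.

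S100a9, the partner of S100a8, also had a lower mean in exposed lungs, over a narrower range of ratios. Exposed lungs ran from 5.28 in mouse 20 through a median of 6.38 to 6.72 in mouse 7, and control lungs from 5.85 in mouse 24 through a median of 6.48 to 6.80 in mouse 29. Exposed mice 19, 20 and 23 lay below every control and the others lay among them. The difference of the means was -0.33 ± 0.23 (SE; adjusted p = 0.793 by limma), and the exact permutation p was 0.221. Within the first scan day exposed minus control was 0.12, and within the second -0.72.

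The ratio of S100a9 did not follow its Cy5 signal fully, because the signal of its spot in the reference channel moved too. Over the 13 lung arrays the Cy5 intensity covered 3.17 log2 units, from 12.14 to 15.32, and the Cy3 intensity of the same spot went with it from 6.85 to 8.52, although the same reference RNA was on every array. The ratio covered 1.52 units. S100a8 covered a like range in Cy5, 3.33 units, with a Cy3 range of 0.32. In Cy5 alone, the exposed mean of S100a9 was 13.35 ± 0.94 (SD, n = 7) and the control mean 14.26 ± 0.85 (SD, n = 6), a difference of -0.91 that lay close to the -0.92 of S100a8. The reason for the rise in Cy3 was not tested.

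**Figure D2:**
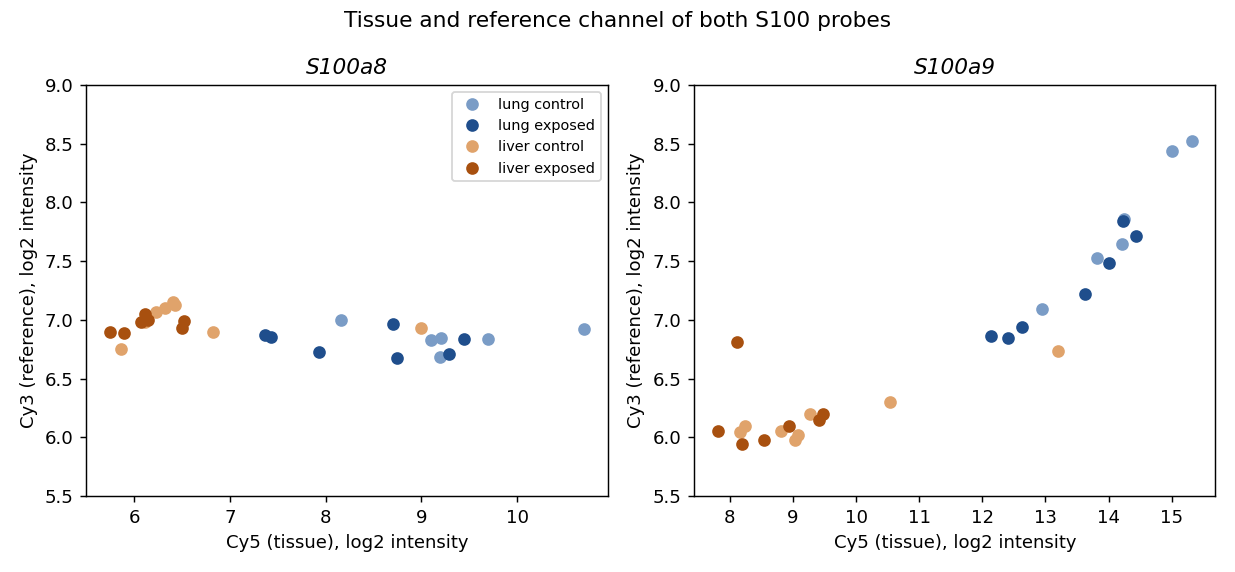
Log2 intensity in the reference channel (Cy3) against the tissue channel (Cy5) for the S100a8 and S100a9 probes, 1 point an array, coloured by group. The Cy3 signal of S100a8 stays between 6.68 and 7.16, while that of S100a9 reaches 8.52 on the lung arrays with the brightest Cy5 signal.

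Retnlg followed the S100 genes in the lung. Its values ran from 1.15 in mouse 20 through a median of 1.58 to 2.44 in mouse 7 among exposed lungs, and from 1.15 in mouse 24 through a median of 2.16 to 2.62 in mouse 32 among controls. The groups overlapped over nearly their whole range. The difference was -0.37 ± 0.25 (SE; adjusted p = 0.793 by limma), with an exact permutation p of 0.222. Within scan days it was 0.0024 on the first and -0.81 on the second.

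The granule genes had smaller differences between the group means than S100a8, which were not tested against it. Camp ranged from 0.063 to 1.86 in exposed lungs, with a median of 0.59, and from -0.076 to 2.59 in control lungs, with a median of 0.66. Its highest values belonged to control mouse 32 and exposed mice 12 and 7, and its lowest to control mouse 29, where the probe was not well above background. The difference was -0.074 ± 0.39 (SE; adjusted p = 0.982 by limma; exact permutation p = 0.875). Without control mouse 32 it was 0.27. Within the first scan day exposed minus control was 0.80, and within the second -1.30.

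Ngp was near the limit of the array in the lung. In Cy5 it passed the scanner's background test in 4 of 7 exposed and 2 of 6 control lungs. Values ran from -0.025 to 0.49 in exposed and from -0.080 to 1.09 in control lungs, again with mouse 32 highest and mouse 29 lowest among the controls. The difference was -0.087 ± 0.16 (SE; adjusted p = 0.930 by limma; exact permutation p = 0.705), and 0.074 without mouse 32. Mpo was about as dim in Cy5, with means of 6.19 in exposed and 6.24 in control lungs beside 6.17 and 6.30 for Ngp. It was well above background in 7 of 7 exposed and 5 of 6 control lungs. Its range of ratios was the narrowest of the 6 genes. Mpo ran from -0.54 to -0.18 in exposed and from -0.44 to -0.21 in control lungs. Of the 7 exposed lungs 4 lay below the lowest control and 2 above the highest. Its difference was -0.074 ± 0.067 (SE; adjusted p = 0.838 by limma; exact permutation p = 0.307).

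All 6 lung differences were below 0, as were those of 49.3% of all probes. The sign turned for Camp and Ngp without control mouse 32 and with the scanner's processed signals (0.21 and 0.012), and for Camp without exposed mouse 1, 19 or 20. None of the 6 was called at an adjusted p under 0.05, and in the main fit none had an unadjusted p under 0.05. Over the alternative settings and arrays left out, the unadjusted p by limma reached 0.0114 for S100a8 and 0.0195 for Retnlg. Their lowest adjusted p-values by limma were 0.449 and 0.529. Over the array limma called 91 of 41172 probes in the lung, or 0.221%, and 2913, or 7.08%, had an unadjusted p under 0.05. The exposed and control lungs overlapped for all 6 genes, while 0.385% of probes had groups that did not overlap. The 95% confidence interval of Camp ran from -0.90 to 0.75, so that differences up to those sizes in either direction were not excluded.

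**Figure D3:**
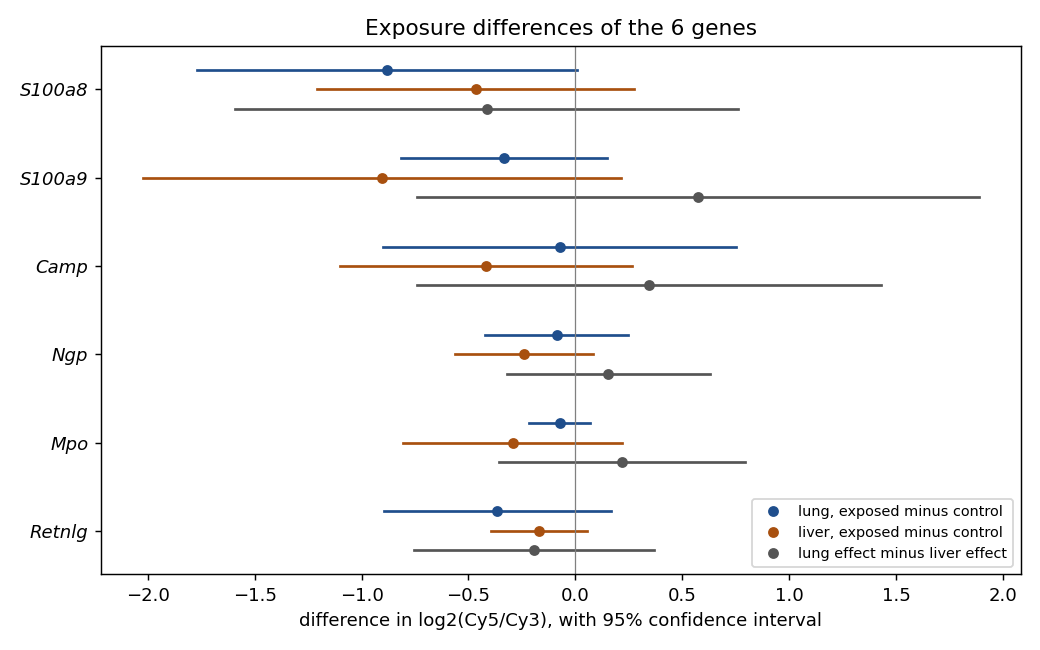
Differences in log2(Cy5/Cy3) for each gene with 95% confidence intervals from limma: exposed minus control in lung, the same in liver, and the lung difference minus the liver difference. All 18 intervals include 0, and in lung and liver all 12 points lie below it.

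Of the other genes of the neutrophil programme, 1 was called in the lung. Of 12 other granule protein genes, 1 was called higher and 0 lower, 10 had a difference above 0, and the median difference was 0.085, beside 0.0012 over all probes. Of the 10 above 0, Elane, Prtn3, Bpi and Olfm4 were well above background on no lung array. The called gene was Lcn2, lipocalin 2, an iron-siderophore binding protein of secondary granules that epithelium also makes. Lcn2 ran from 2.87 to 3.33 in exposed and from 1.24 to 1.55 in control lungs, so that the groups did not overlap, and its difference was 1.70 ± 0.074 (SE; adjusted p = 2.09e-08 by limma). Of 17 genes of the neutrophil surface and its signalling, none was called and 13 lay below 0, with a median of -0.15. Among these Fpr1 and Fpr2, receptors for formylated peptides, had the largest differences, -0.44 (adjusted p = 0.111 by limma) and -0.44 (adjusted p = 0.302 by limma). None of 5 neutrophil stefins was called, with a median of -0.11, 2010005H15Rik at 0.26 and Stfa2l1 at -0.25. None of 6 granulocyte precursor genes was called, with Myb at 0.34 (adjusted p = 0.546 by limma) and Cebpd at 0.22, both transcription factors.

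Genes that act with the members were measured as well. Of 6 receptors and partners of S100a8 and S100a9, Cd14, the co-receptor of Toll-like receptor 4, was called higher in exposed lungs. It ran from -1.06 to -0.59 in exposed and from -1.59 to -1.06 in control lungs, a difference of 0.53 ± 0.094 (SE; adjusted p = 0.0288 by limma). Of 6 signals that recruit neutrophils, Cxcl1 was called, with a difference of 0.92 ± 0.11 (SE; adjusted p = 0.000812 by limma). Cxcl5, named after its values were seen, had a difference of 2.24 ± 0.48 (SE) that was not called (adjusted p = 0.0909 by limma). Its 7 exposed values spread from -2.52 to 1.01. None of 14 other S100 genes was called, with S100g at -0.41 and S100a4 at 0.35. None of 3 other resistin genes was called, with Retnla at 0.51 (adjusted p = 0.546 by limma), and none of 4 other haem peroxidases, of which Pxdn at -0.063 was farthest from 0.

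Markers of other blood cells were compared because blood reaches both tissues. None of 7 platelet markers was called in the lung, all 7 lay below 0, and Ppbp stood at -0.56 (adjusted p = 0.312 by limma). Their mean ran from 0.72 to 1.1 in exposed and from 0.84 to 1.38 in control lungs, highest in control mouse 29, the mouse with the highest S100a8. None of 11 red blood cell markers was called, with Ahsp at 0.81 (adjusted p = 0.0508 by limma) and a mean of 1.24 to 1.52 in exposed and 1.21 to 1.5 in control lungs, and none of 4 monocyte, 4 B cell, 4 T cell and 8 eosinophil, basophil and mast cell markers. Of 6 alveolar macrophage markers, Marco was called higher by 0.57 and Siglecf lower, with a difference of -0.70. The part of these cells in the differences of the 6 genes was not tested.

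In the liver S100a9 was well above background in Cy5 on all 15 arrays, Mpo on 13 and S100a8 on 8, and Camp, Ngp and Retnlg on 1. In Cy3 S100a9 was well above background in 3 of 7 exposed and 5 of 8 control livers. Its ratio ran from 1.30 in mouse 23 through a median of 2.55 to 3.27 in mouse 13 among the exposed livers. Mouse 23 had a Cy5 intensity of 8.11, above the 7.81 of mouse 20, and the highest Cy3 intensity of the exposed livers, 6.81. Control livers ran from 2.12 in mouse 45 through a median of 3.05 to 6.46 in mouse 32, with mouse 29 next at 4.24. The difference was -0.91 ± 0.53 (SE; adjusted p = 1.000 by limma; exact permutation p = 0.150). The control mean was 3.36 with mouse 32 and 2.92 without it. Without mouse 32 the difference was -0.46 and the exact permutation p was 0.262.

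S100a8 lay between -1.15 and -0.43 in exposed livers, with a median of -0.92, and between -0.89 and -0.072 in all control livers but 1. The exception was mouse 32, at 2.07. The probe was well above background on 4 of 7 exposed and 4 of 8 control livers. The difference was -0.47 ± 0.35 (SE; exact permutation p = 0.278) with mouse 32 and -0.12 (exact permutation p = 0.453) without it.

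Camp, Ngp and Retnlg were well above background on no exposed liver and on 1 of 8 control livers, that of mouse 32. Their differences with this liver included were -0.42 ± 0.32 (SE), -0.24 ± 0.15 (SE) and -0.17 ± 0.11 (SE). With each array's lowest measured signal as a floor for the dimmer group, the Cy5 mean of the control livers was 1.39-fold higher for Camp, 1.20-fold for Ngp and 1.12-fold for Retnlg. These values rest on mouse 32. They are not bounds, since the signals of the other livers were not measured above background. On the other livers, the ratios of these 3 genes stayed within -0.14 to 0.14, and the liver differences without mouse 32 were -0.079 for Camp (exact permutation p = 0.0210), -0.084 for Ngp (exact permutation p = 0.0221) and -0.067 for Retnlg (exact permutation p = 0.0472). None of the 14 remaining livers was above background for these 3 genes, so that these differences are between values that were not measured above background. Mpo was well above background on 5 exposed and all 8 control livers. It ran from -0.30 to -0.066 in exposed livers and from -0.34 to -0.010 in the control livers other than mouse 32, which stood at 1.83. Its difference was -0.29 ± 0.24 (SE; exact permutation p = 0.343) with mouse 32 and -0.044 (exact permutation p = 0.475) without it.

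No gene was called in the liver: limma called 0 of 41174 probes, or 0%, and 1002, or 2.43%, had an unadjusted p under 0.05. None of the 6 genes was among these, and the groups overlapped for all 6, while 0.0243% of probes had groups that did not overlap. All 6 differences lay below 0, as did 51.7% of all probes. The exact permutation p, not adjusted, was 0.0323 for Ngp, 0.0446 for Retnlg and 0.118 for Camp, all 3 of which were above background on 1 array of the 15. Without that array it was under 0.05 for all 3, as given above. Markers of other cells also lay below 0 in exposed livers: 4 of 4 Kupffer cell markers, with a median of -0.22 and Cd5l at -0.25 (unadjusted p = 0.00343 by limma), and 4 of 4 hepatocyte markers, with a median of -0.19 and Alb at -0.33 (unadjusted p = 0.000168 by limma), none of them called. The mean of the Kupffer cell markers ran from 3.82 to 4.34 in exposed and from 3.98 to 4.49 in control livers, and that of the hepatocyte markers from 4.89 to 5.16 and from 5.10 to 5.42. Their part in the differences was not tested. Of the other neutrophil genes, 10 of 12 granule protein genes, 4 of 5 stefins and 14 of 17 surface and signalling genes lay below 0, with medians of -0.018, -0.0034 and -0.060. These counts include mouse 32. The mean over the granule protein genes was -0.018 in exposed livers, and 0.028 in control livers with mouse 32 and -0.024 without it. For the stefins it was 0.057, 0.072 and 0.075, and for the surface and signalling genes 0.070, 0.11 and 0.10. Elane, Bpi and Olfm4 were well above background on no liver.

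The difference between lung and liver in the exposure effect was tested for each gene. It ran from -0.41 ± 0.57 (SE) for S100a8 to 0.57 ± 0.64 (SE) for S100a9, and the 6 adjusted p-values from limma were all 1.000. With slide as a block the S100a8 value was 0.022. Without the liver of mouse 32 the Mpo value turned from 0.22 to -0.030 and the Ngp value from 0.15 to -0.0031. Without both arrays of that mouse the Mpo value was -0.026. None of the 6 genes had an unadjusted p under 0.05, beside 1772 probes, or 4.3%, on the array. On the whole array 60 of 41172 probes, 0.146%, were called, Lcn2 among them with a difference of 1.79.

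Control mouse 32 held the highest liver value of each of the 6 genes. Its S100a8 of 2.07 stood 2.14 above the next liver, its S100a9 of 6.46 stood 2.22 above and its Camp of 2.71 stood 2.59 above. Mpo, at 1.83, lay 1.84 above the next liver, Ngp, at 1.26, 1.19 above and Retnlg, at 0.91, 0.78 above. Over all probes measured on every liver array, ordered by how far this liver exceeded the next highest, Camp, S100a9 and S100a8 held ranks 1, 2 and 3, Mpo rank 5, Ngp rank 7 and Retnlg rank 11. The other places down to rank 11 were held by both probes of Ltf, lactoferrin of the secondary granules, by Lcn2, Etnk2 and Gadd45g. The liver of mouse 32 exceeded all other livers on 7.61% of probes, within the range of 4.17% to 9.83% over the 15 liver arrays.

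Of the wider neutrophil lists, 6 of 12 other granule genes were highest in this liver. Ltf stood at 2.52 beside at most 0.60 elsewhere, Lcn2 at 1.25 beside at most 0.35 and Mmp8, neutrophil collagenase, at 0.51 beside at most 0.083. Elane, neutrophil elastase of the primary granules and 1 of these 6, was not well above background there. In contrast 3 of 17 surface and signalling genes, 1 of 5 stefins and 0 of 6 precursor genes were highest in it. Among other markers, 2 of 7 platelet, 2 of 4 Kupffer cell and 1 of 6 alveolar macrophage markers were highest in this liver, and 0 of 4 monocyte, 0 of 4 B cell, 0 of 4 T cell, 0 of 11 red blood cell and 0 of 5 lung epithelium markers. The part of any of these in the values was not tested.

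The lung of the same mouse had the highest Camp, Ngp and Retnlg of all lungs. Its Camp of 2.59 compared with at most 1.86 in the other 12 lungs, its Ngp of 1.09 with at most 0.49, and its Retnlg of 2.62 with at most 2.60. Its S100a8 of 2.86 and S100a9 of 6.57 lay within the range of the other lungs, as did its Mpo of -0.29. Mpo was thus high in the liver of this mouse and not in its lung. Of 12 other granule genes, 3 were highest and 2 lowest in this lung.

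Between mice of 1 group, S100a8 was compared with each of the other genes in each of the 4 groups, 20 relations in all. Points of 1 group share the array from which both genes were read. Lungs of 1 group were also scanned on different days, and the permutations did not keep the days apart. In exposed lungs the S100a8 mean was 2.30 on the first scan day and 1.09 on the second, and the S100a9 mean 6.50 and 5.76. In control lungs these means were 2.39 and 2.68 for S100a8 and 6.38 and 6.48 for S100a9. The part of scan day in the lung relations was not tested. In exposed lungs S100a8 and S100a9 were related with r = 0.94 (n = 7, exact permutation p = 0.00258, adjusted 0.0347) and rho = 0.79 (exact permutation p = 0.0480, adjusted 0.137). Without the 2 mice farthest from the S100a8 median, mice 19 and 20, r was 0.82. In control lungs r was 0.93 (n = 6, exact permutation p = 0.0222, adjusted 0.0741) and rho was 0.83 (exact permutation p = 0.0583, adjusted 0.146), and r was 0.36 without mice 24 and 29, so that this relation rests on those mice. In exposed livers r was 0.86 (n = 7, exact permutation p = 0.0181, adjusted 0.0722) and rho was 0.96 (exact permutation p = 0.00278, adjusted 0.0556), with r = 0.73 without mice 1 and 13. In control livers mouse 32 formed a point of its own. Without it, and with p adjusted over the 15 relations that then remained, r was 0.85 (n = 7, exact permutation p = 0.0278, adjusted 0.104) and rho 0.68 (exact permutation p = 0.110, adjusted 0.274), and without mice 29 and 45 as well r was 0.13.

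Retnlg had correlations with S100a8 in both lung groups that did not pass the adjusted threshold. In exposed lungs r was 0.89 (n = 7, exact permutation p = 0.0131, adjusted 0.0655) and rho 0.89 (exact permutation p = 0.0123, adjusted 0.114). In control lungs r was 0.92 (n = 6, exact permutation p = 0.00833, adjusted 0.0556) and rho 0.89 (exact permutation p = 0.0333, adjusted 0.114). Without the 2 farthest mice r was 0.76 and 0.96. In the livers Retnlg was below background apart from mouse 32.

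For Camp and Ngp the 2 lung groups gave different values, and the difference between them was not tested. In exposed lungs r with S100a8 was 0.78 for Camp (n = 7, exact permutation p = 0.0544, adjusted 0.121) and 0.78 for Ngp (n = 7, exact permutation p = 0.0524, adjusted 0.121). The rho values were 0.86 (exact permutation p = 0.0238, adjusted 0.114) and 0.82 (exact permutation p = 0.0341, adjusted 0.114), and r without mice 19 and 20 was 0.52 and 0.48. In control lungs r was -0.062 for Camp (n = 6, exact permutation p = 0.876, adjusted 0.968) and -0.016 for Ngp (n = 6, exact permutation p = 0.968, adjusted 0.968), and rho was -0.086 for both (exact permutation p = 0.919, adjusted 0.963). Mouse 29 had the highest S100a8 and S100a9 of all lungs, at 3.77 and 6.80, and the lowest Camp and Ngp, at -0.076 and -0.080. Mouse 32 had the highest Camp and Ngp and an S100a8 of 2.86. Without mice 24 and 29, the 2 farthest, r was 0.97 for Camp and 0.96 for Ngp over 4 mice. Among the control lungs Ngp was well above background in mice 32 and 34 alone. In mouse 29 neither Camp nor Ngp was well above background. For Mpo r was 0.024 in exposed (n = 7, exact permutation p = 0.952, adjusted 0.968) and -0.28 in control lungs (n = 6, exact permutation p = 0.621, adjusted 0.828). Its rho was 0.071 (exact permutation p = 0.906, adjusted 0.963) and -0.43 (exact permutation p = 0.419, adjusted 0.763), and without the 2 farthest mice r was -0.27 and -0.35.

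**Figure D4:**
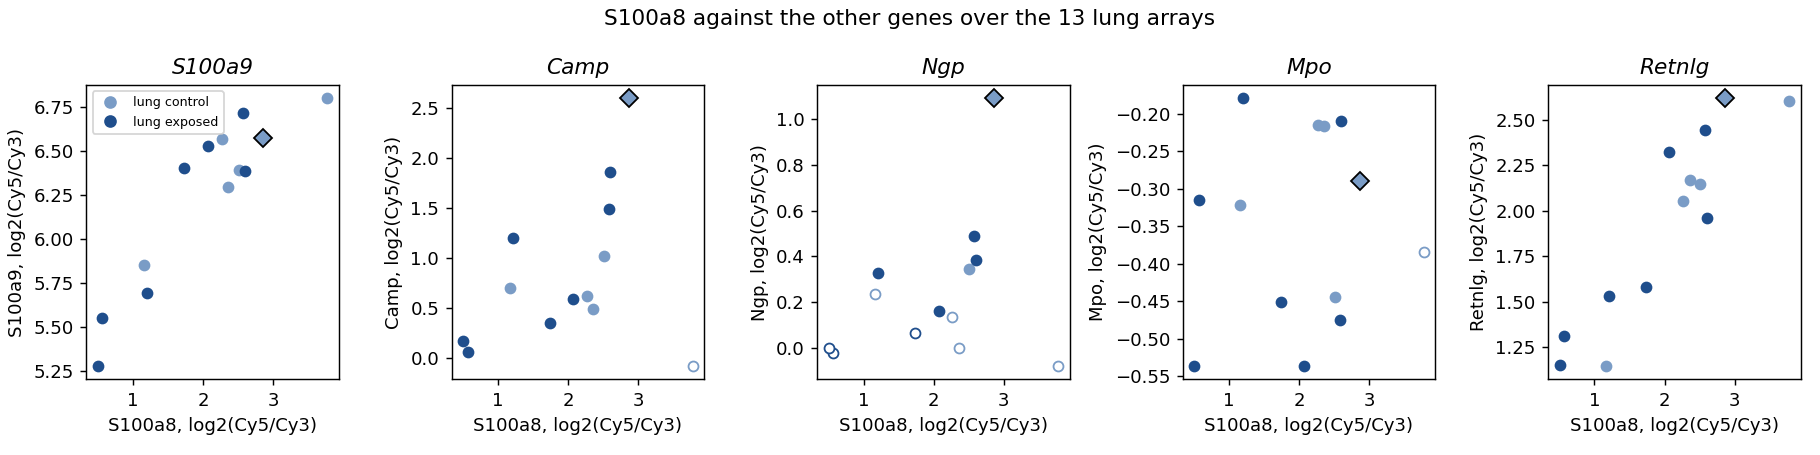
Log2(Cy5/Cy3) of S100a8 against each of the other genes on the 13 lung arrays, dark for exposed and light for control mice. Open symbols mark arrays on which the other gene was not well above background, and the diamond marks control mouse 32. S100a9 and Retnlg rise with S100a8, while the lung with the highest S100a8, at 3.77, has the lowest Camp and Ngp.

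Over all 13 lung arrays, the 5 probes of other genes with the pattern most like S100a8, out of 26596 probes ranked by r, were those of Mmp9 (0.94), Pram1 (0.92), Stfa1 (0.92), S100a9 (0.92) and Retnlg (0.91). Mmp9 is a gelatinase of the tertiary granules and Stfa1 a neutrophil stefin. Camp ranked 5623 with r = 0.32, Ngp 6164 with 0.30 and Mpo 11225 with 0.084. Over the 15 liver arrays the most like probes were those of S100a9 (0.93), Mpo (0.90), Irx2 (0.90) and both probes of Ltf (0.90 and 0.89). Without mouse 32 S100a9 ranked 7 with r = 0.86, and Mpo had an r of -0.23.

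The 12 mice with both tissues allow the lung to be set against the liver of the same mouse, a comparison chosen after the values were seen. Mice were hybridized in the same groups of slides in both tissues, so that mouse and slide cannot be told apart. For S100a9 r was 0.83 in exposed (n = 6, exact permutation p = 0.0625, adjusted 0.375) and 0.62 in control mice (n = 6, exact permutation p = 0.217, adjusted 0.433), and rho was 0.83 (exact permutation p = 0.0583, adjusted 0.175) and 0.89 (exact permutation p = 0.0333, adjusted 0.175). Without the 2 farthest mice r was 0.75 and 0.62. For S100a8 r was 0.55 in exposed (n = 6, exact permutation p = 0.261, adjusted 0.448) and 0.41 in control mice (n = 6, exact permutation p = 0.347, adjusted 0.521). Their rho values were 0.77 (exact permutation p = 0.103, adjusted 0.247) and 0.66 (exact permutation p = 0.175, adjusted 0.350), and r without the 2 farthest mice was 0.86 and 0.92. Of the 12 relations, 6 genes in 2 groups, none had an adjusted p of r under 0.05. By rank 1 did, Retnlg in control mice, with rho = 1.0 (n = 6, exact permutation p = 0.00278, adjusted 0.0333) and r = 0.58 (exact permutation p = 0.168, adjusted 0.433), or 0.87 without mice 24 and 32, although Retnlg was above background in 1 of these livers. Mouse 20 had the lowest S100a8 in both tissues, and among controls mouse 29 had the highest in the lung and the highest but mouse 32 in the liver.

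By level, the lung exceeded the liver for the S100 genes and Retnlg. The control means of S100a8 were 2.49 ± 0.85 (SD, n = 6) in lung and -0.36 ± 1.01 (SD, n = 8) in liver, a difference of 2.84 ± 0.41 (SE), or 7.18-fold (adjusted p = 4.46e-07 by limma; exact permutation p = 0.000999). In Cy5, 4 of these 8 livers passed the scanner's background test for S100a8. The fold thus rests in part on livers in which S100a8 was not measured above background. Apart from mouse 32, every control liver lay below every control lung. S100a9 differed by 3.05 ± 0.46 (SE), or 8.27-fold in the ratio (adjusted p = 9.03e-07 by limma; exact permutation p = 0.00266), with Cy5 means of 14.26 and 9.54. With the scanner's processed signals the S100a9 difference was 0.71 and was not called (adjusted p = 0.307 by limma). Without the liver of mouse 32 the differences were 3.19 for S100a8, 3.49 for S100a9 and 2.05 for Retnlg, and all 3 stayed called. Retnlg differed by 1.94 ± 0.19 (SE; adjusted p = 4.33e-10 by limma). No fold is given, since its probe was above background on 1 of 8 control livers. Every control lung lay above every control liver for Retnlg. Its exact permutation p of 0.000333 is the smallest that 6 against 8 arrays can give. In exposed mice the Cy5 mean of Retnlg was 3.65-fold higher in lung than in liver, with a floor as above, that of Camp 2.01-fold and that of Ngp 1.26-fold. These values compare signals and are not bounds. No exposed liver was measured above background for them, and Ngp was measured in 4 of 7 exposed lungs. The 3 calls of S100a8, S100a9 and Retnlg stand beside 60% of all probes called between the tissues, with 30.4% of all probes called higher in lung, and Retnlg beside 40.8% of probes whose groups did not overlap. Lung and liver arrays were scanned as separate sets with different software versions, so that tissue and array set cannot be told apart.

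Camp, Ngp and Mpo were not called between the control tissues. Camp differed by 0.55 ± 0.38 (SE; adjusted p = 0.214 by limma; exact permutation p = 0.334) and Ngp by 0.12 ± 0.16 (SE; adjusted p = 0.564 by limma; exact permutation p = 0.554). Mpo was lower in lung by point estimate, with a difference of -0.41 ± 0.20 (SE; adjusted p = 0.0821 by limma; exact permutation p = 0.0946). Without the liver of mouse 32 all 3 were called, Camp at 0.89 (adjusted p = 0.00833), Ngp at 0.28 (adjusted p = 0.0477) and Mpo at -0.16 (adjusted p = 0.0409), all by limma. Without both arrays of mouse 32 Camp alone of these was called, at 0.55 (adjusted p = 0.0335), with Ngp at 0.11 (adjusted p = 0.218) and Mpo at -0.16 (adjusted p = 0.0519). Mpo was also called without the liver of control mouse 26, at -0.47 (adjusted p = 0.0490 by limma), and Ngp turned to -0.042 without the lung of mouse 32.

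Ordered by group mean, S100a8, S100a9 and Retnlg ran from control lung through exposed lung and control liver to exposed liver. The exposed and control groups of a tissue overlapped. Every exposed lung lay above every control liver for Retnlg, and above every control liver but that of mouse 32 for S100a8 and S100a9. For Camp and Ngp the means had the same order with mouse 32. Without it, the exposed lungs had the higher mean, 0.82 beside 0.55 in control lungs for Camp and 0.20 beside 0.13 for Ngp. For Mpo both liver means lay above both lung means, with control above exposed in each tissue.

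Other genes of these families were also unequal between the control tissues. Of 12 other granule genes 6 were called higher in lung and 2 lower, led by Chi3l1 at 3.61, Ltf at 2.84, Pglyrp1 at 1.52 and Lcn2 at 1.25. Of 17 surface and signalling genes 11 were called higher and 2 lower, led by Hdc at 2.57. Of 14 other S100 genes 9 were called higher and 3 lower, led by S100a6 at 5.60 and S100g at 5.24. Ager, 1 of the receptors and a product of alveolar epithelium, differed by 4.65, and Retnla by 3.61.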

How the data were processed

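Lung (7 exposed, 6 control) and liver (7 exposed, 8 control) mRNA was analysed on 28 two-colour arrays with 1 mouse each. The 13 miRNA arrays were not used here. The authors deposited scanner output, with spot and background intensity values not normalized, from software version 9.5.3.1 for lung and 10.1.1.1 for liver. The authors also deposited a table of log2 ratios made with LOWESS, used as an alternative.

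Median intensities were corrected by normexp (offset 50), with the model fitted without spots whose feature or local background the scanner marked, and normalized by loess within arrays. Controls and marked features were left out and spots of a probe averaged, giving 41174 probes. Groups were compared with limma 3.58.1 in R 4.3.3 and p-values adjusted over all probes by Benjamini-Hochberg (threshold 0.05). For the members, every split of the arrays was enumerated for an exact permutation p (1716 splits in lung, 6435 in liver), and every pairing for correlations. Levels per channel used loess and Aquantile. The fits were tested on simulated data. The number of arrays limits the precision.

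The members and 23 gene lists were chosen with earlier results of these data known. From each list the genes called (at most 4) or otherwise the 2 with the largest difference were named, using the brightest probe of a gene. The 5 genes most like S100a8 were taken among probes that passed the scanner's background test in at least 50% of a group's arrays. The mouse number pairs lung and liver of 12 mice, as the methods state. Deviations from the group means correlated between both tissues of a mouse at -0.082 to 0.23, over 0.1 in 5 of 12 mice. Alternatives were other background corrections and normalizations, a filter, 1 value per gene, slide, scan day or mouse as a block, and leaving out arrays.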

Additional observations from a re-analysis of the deposited data

Results flagged for a closer look

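In 6 of the 24 sets of values, 1 gene in 1 group, a single mouse lay far from its group, and each time it was control mouse 32. A gap of that size is expected by chance in about 1 in 20 sets. In the liver these were S100a8 at 2.07 (next highest control -0.072), Camp at 2.71 (next 0.11), Ngp at 1.26 (next 0.068), Mpo at 1.83 (next -0.010) and Retnlg at 0.91 (next 0.14). In the lung it was Ngp at 1.09 (next 0.35). S100a9 of the same liver, at 6.46 beside 4.24 for the next, did not pass this limit. The cause was not tested.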

How the results depend on the processing

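The number of members called did not change in lung, liver or the difference between them under any alternative run. In lung, 58 of 60 values of the 6 genes under other settings and 73 of 78 with 1 array left out kept the sign of the difference, the exceptions being Camp and Ngp. In liver 51 of 51 and 90 of 90 kept it, and for the difference between tissues 54 of 60 and 171 of 174, here also without both arrays of mouse 32. The mouse as a replicate block changed no call of a member: 0 of 6 were called for the difference between tissues with the block, 0 within mice and 3 of 6 between control tissues. Over the array, the mouse as a random replicate block gave 63 calls and within-mouse differences 51 in place of 60. The lung count of 91 probes became 15 with normexp fitted on all spots and 7 with median centering, and was 69 to 93 without 1 array. The count for the difference between tissues became 5, 12 and 35 with normexp on all spots, median centering and the scanner's processed signals, and was 47 to 63 without 1 array. Without mouse 32 it was 41. The liver count was 0 to 0 without 1 array. Between control tissues 3 to 6 members and 23951 to 24806 probes were called without 1 array, 4 members without both arrays of mouse 32, and with the processed signals 4, S100a9 losing its call (0.71, adjusted p = 0.307 by limma) and Camp (2.35, adjusted p = 0.0216) and Mpo (-1.02, adjusted p = 0.0263) gaining one. Of the relations with S100a8, 2 had an adjusted p of r under 0.05 (S100a9 in exposed lungs and in control livers, the latter with mouse 32), 5 without background correction and 1 without mouse 32. Of these 5, 1 was Camp in exposed livers, where its probe was well above background on no array. There r was 0.97 without background correction and -0.47 with it. The cause of the changes between settings was not tested. Camp, Ngp and Retnlg were near background in most livers, so that differences there could not be detected.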
